A study of Mus musculus with 72 samples.

Results

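The aminoacyl-tRNA synthetase genes were followed through the day in mouse liver under 4 feeding paradigms. They were chosen by name and level: 36 gene symbols of the family were matched to the rows of the count table, and a mean of at least 1 CPM (the share of a library's counts, scaled to a common total) was required. All 36 were found and all 36 met the level rule, out of 51912 genes in the table. The 20 genes that encode cytosolic enzymes and the 16 that encode mitochondrial enzymes, whose symbols end in 2, are described apart. Gars and Kars encode both forms of their enzymes and are counted as cytosolic.

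The series set rhythmic food intake against the hepatic clock as a source of rhythmic gene expression. RNA was taken from livers of male wild-type C57BL/6J mice, which were 43 to 49 days old at the start and were kept under 12 h of light and 12 h of dark. The 72 libraries, made with a 3′ mRNA kit that reads each transcript near its end, fell into 24 groups of 3: 4 paradigms at 6 zeitgeber times (ZT, hours after lights on), ZT2, ZT6, ZT10, ZT14, ZT18 and ZT22. Mice were fed at night only (night-restricted), freely (ad libitum) or on a schedule labelled arrhythmic. A last set, on the same schedule and labelled as not fully adapted, is called incompletely adapted here. The labels do not say how the arrhythmic meals were given or how adaptation was judged. They also do not say that the replicates were separate animals, so every p-value reflects the spread among these samples, which may be technical.

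Total counts per library ran from 4342026 to 12286021, with a median of 6992793. The 6 hepatocyte markers examined were all measured, with a summed level of 25879 to 41319 CPM per library under night-restricted feeding and 20796 to 31608 in the arrhythmic group. Libraries differed in how strongly gene level followed the GC content of the 3′ end (the GC slope). The 5 farthest from the median slope were called extreme: night-restricted replicate 1 at ZT2, ZT6, ZT18 and ZT22, and incompletely adapted arrhythmic replicate 1 at ZT10. This is a cut by rank and not at a gap. Night-restricted replicate 1 at ZT18 had 0.249, and incompletely adapted replicate 1 at ZT14, not among the 5, had -0.262. Of the 5, the night-restricted libraries held 1.91% to 2.87% mitochondrial counts and 14468 to 14877 genes with counts. The incompletely adapted one held 5.88% and 16283. Results that rest on these 5 libraries are given with and without them. In whole liver, fewer cells of a type and less RNA per cell cannot be told apart.

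Aminoacyl-tRNA synthetases join each amino acid to its transfer RNA, the step that supplies charged tRNA to the ribosome. Separate nuclear genes usually encode the enzyme for the cytosol and the one imported into mitochondria, and several cytosolic enzymes sit in a shared multi-synthetase complex. When amino acids run short, uncharged tRNA activates the kinase GCN2 and raises translation of the transcription factor ATF4, and several cytosolic synthetase genes are known ATF4 targets through a C/EBP-ATF response element.

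Promoter windows are shown for Tars, Gars and Aars because they alone, among the family members with a promoter in the RefSeq table, held the core of that element (TGATGNAA, searched on both strands from 250 bases before the start). Capitals mark the match, which lay on the minus strand relative to each gene and therefore reads as its reverse complement. The sequences are from RefSeq, build GRCm38.p6, written 5′ to 3′ on the gene's strand.
Tars (threonine), chr15:11399659-11399703, minus strand: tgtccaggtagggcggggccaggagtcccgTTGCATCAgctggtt
Gars (glycine), chr6:55037941-55038000, plus strand: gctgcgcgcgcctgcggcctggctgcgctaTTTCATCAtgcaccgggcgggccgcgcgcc
Aars (alanine), chr8:111033700-111033767, plus strand: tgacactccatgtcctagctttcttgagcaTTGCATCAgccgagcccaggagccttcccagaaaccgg

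The match began 15 bases before the start in Tars, 30 in Gars and 112 in Aars. It was found in 3 of the 27 members with a RefSeq promoter (11.1%) and in 1134 of all 32851 promoters (3.45%). Counted by gene, as the members are, it was found in 1056 of 27025 genes (3.91%). The E-box CACGTG, the binding motif of the clock factors CLOCK and BMAL1, was found in 3 of the 27 (Iars, Aars and Farsb) and in 6.02% of all promoters, or 6.86% of genes. These are matches of letters and not measured binding.

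Levels spread widely within the family. Tags of 3′ sequencing carry no length term, so CPM can be set side by side between genes as tag abundance, in CPM averaged over the 72 libraries. Tars, the threonyl enzyme, was highest at 223.6 CPM. Farsa, the alpha subunit of the phenylalanyl enzyme, followed at 137.9, and its beta subunit Farsb stood at 77.0. Mars (methionyl) had 88.0 and Nars (asparaginyl) 87.7, and Wars, the tryptophanyl enzyme, was the lowest cytosolic member at 9.11. The mitochondrial genes were mostly lower, apart from Fars2, the mitochondrial phenylalanyl enzyme, at 121.5 CPM. Pars2 (prolyl) was lowest at 1.19, just inside the level rule, followed by Wars2 at 1.71 and Mars2 at 2.00. At the 3′ end, Fars2 overlaps an exon of Nrn1 on the opposite strand, as do Mars with Ddit3, Yars with C77080, Farsb with Sgpp2, Cars2 with Naxd and Iars2 with Rab3gap2. Aars overlaps Exosc6 on the same strand. The strand setting of the counting is not given in the sources used here, so the reads of these pairs cannot be told apart.

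A gene was called rhythmic where a 24 h cosine curve fitted to its counts passed a false discovery rate of 0.05 over all 12712 genes tested, and its range is the fitted trough-to-peak difference on the log2 scale. Times set side by side below are mostly those of high and low means, picked from the same values. Triplets that lie apart are therefore a description and no test, and how often this holds over all genes was not counted. Night-restricted feeding gave 12 rhythmic members of 36 (33.3%), beside 29.9% of all genes tested. These were 6 of the 20 cytosolic genes (Cars, Mars, Nars, Qars, Sars and Tars) and 6 of the 16 mitochondrial ones (Cars2, Ears2, Hars2, Lars2, Mars2 and Vars2). Ad libitum feeding gave 2 calls, Qars and Wars2, beside 7.48% of all genes. Arrhythmic feeding gave 0, beside 3.37% of all genes, and incompletely adapted arrhythmic feeding 0, beside 3.63%. At an unadjusted edgeR p under 0.05 the 4 paradigms held 20, 10, 6 and 1 members of 36. Of all 12712 genes tested, 5496, 2847, 1757 and 1756 reached that level. DESeq2 called 16, 3, 0 and 0 members, and its share of all genes is not given here. Some of the livers' cell type markers were also called rhythmic under night-restricted feeding, to be read beside the 29.9% of all genes tested. The calls were 4 of 6 hepatocyte markers (Apoa1, Ass1, Cyp2e1 and Tat), 2 of 5 of Kupffer cells (C1qa and Cd5l) and 1 of 5 of stellate cells (Reln). Of cholangiocytes 1 of the 3 tested of 5 was called (Sox9). Of T and NK cells the 2 tested of 5 were called, Gzma and Trbc2, at low mean levels of 0.80 and 0.85 CPM. The count was 0 of 5 for endothelial cells, 0 of the 3 tested of 5 for B and plasma cells and 0 of 3 for erythroid cells. The summed Kupffer markers ran from 625 to 2276 CPM in the night-restricted libraries, 421 to 2095 in those of freely fed mice, 552 to 1154 in the arrhythmic group and 332 to 1543 in the incompletely adapted mice. The T and NK cell markers summed to 0.986 to 5.84 CPM in the night-restricted libraries. Their part in the members' courses was not tested. The night-restricted share of the members was close to that of all genes, and the other 3 were below it. Their median range was 0.59, 0.42, 0.38 and 0.31 in that order, against 0.70, 0.52, 0.43 and 0.42 over all genes.

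**Figure D1:**
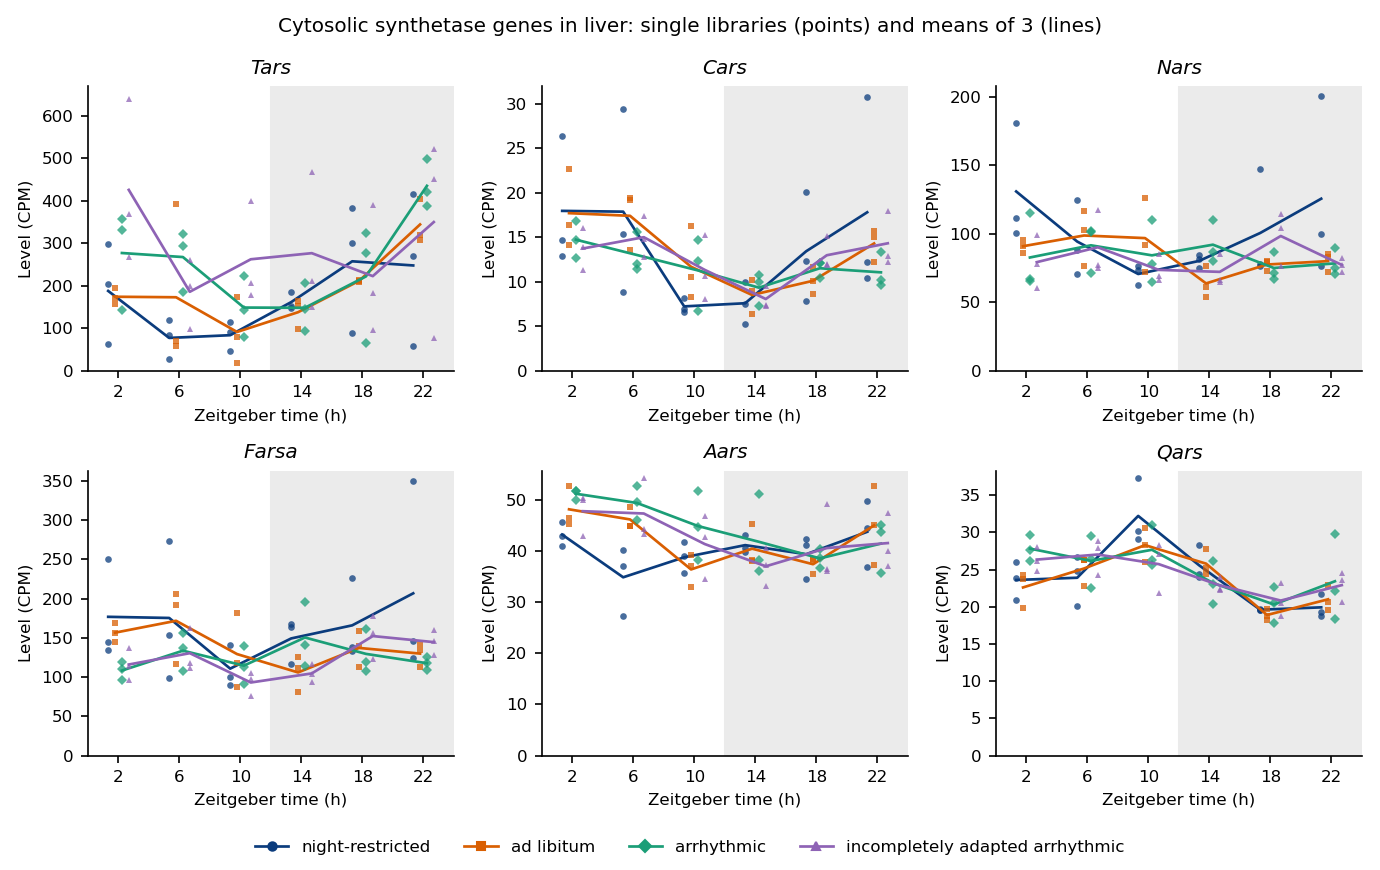
CPM of 6 cytosolic members (Tars, Cars, Nars, Farsa, Aars, Qars) over zeitgeber time in the 4 paradigms; points are libraries, lines join means of 3, and grey marks the dark phase (ZT12 to ZT24). Tars spreads widely between replicates at most times, whereas the Qars replicates lie close together and are highest near ZT10 under night-restricted and ad libitum feeding.

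Tars (chr15:11382301-11399665, minus strand, GRCm38) had the widest fitted range of the family under night-restricted feeding. Under night-restricted feeding the 3 libraries read 61.9, 203 and 298 CPM at ZT2 and 28.1, 119 and 84.7 at ZT6. At ZT10 they read 91.0, 46.5 and 114, at ZT18 88.0, 383 and 301, and at ZT22 58.1, 269 and 416. The libraries numbered 1 were the lowest of their triplets at ZT2, ZT6, ZT18 and ZT22, so the times overlapped. The fitted range was 1.90 ± 0.48 (log2, SE, n = 18) with a peak at ZT20.3 (edgeR adjusted p = 0.0108). Without the 6 night-restricted libraries numbered 1 it was 2.29 with a peak at ZT21.1 (edgeR adjusted p = 0.0118).

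Under ad libitum feeding Tars read 80.0, 19.3 and 175 CPM at ZT10 and 319.8, 308 and 405 at ZT22, and these times did not overlap. The range there was 1.52 ± 0.48 with a peak at ZT22.1 and did not pass (edgeR adjusted p = 0.0918). Under arrhythmic feeding the libraries read 145, 93.6 and 206 CPM at ZT14 and 386, 421 and 497 at ZT22, again apart. The arrhythmic range was 1.28 ± 0.48 with a peak at ZT23.6 (edgeR adjusted p = 0.318). In the incompletely adapted mice the range was 0.58 ± 0.48 with a peak at ZT23.1 (edgeR adjusted p = 0.815), so the fitted peaks lay between ZT20.3 and ZT23.6 in all 4 paradigms, although 1 of the 4 rhythms was called. In those mice Tars read 638, 268 and 369 CPM at ZT2 and 521, 451 and 76.1 at ZT22, the largest SDs of its 24 triplets. With the GC slope of each library as a covariate, Tars passed in 3 paradigms, with ranges of 1.83 (night-restricted, edgeR adjusted p = 7.37e-06), 1.56 (ad libitum, edgeR adjusted p = 0.000195) and 1.23 (incompletely adapted, edgeR adjusted p = 0.0105), and in the arrhythmic mice it had 0.98 (edgeR adjusted p = 0.0511).

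Cars, the cysteinyl enzyme (chr7:143557230-143600090, minus strand, GRCm38), had the smallest p of the family under night-restricted feeding. The libraries held 26.4, 12.9 and 14.7 CPM at ZT2 and 30.7, 10.4 and 12.3 at ZT22. They held 6.91, 8.21 and 6.61 at ZT10 and 10.01, 7.48 and 5.30 at ZT14. Every library at ZT2 and ZT22 lay above every library at ZT10 and ZT14, and replicate 1 was the highest at ZT2 and ZT22. The range was 1.63 ± 0.32 with a peak at ZT0.72 (edgeR adjusted p = 0.000823). It was 1.04 without the 6 night-restricted libraries numbered 1 (edgeR adjusted p = 0.0320) and 0.91 with the GC covariate (edgeR adjusted p = 0.000386). Under ad libitum feeding Cars read 16.3, 22.7 and 14.2 CPM at ZT2 and 6.43, 8.94 and 10.2 at ZT14, with a range of 1.11 that missed the threshold (edgeR adjusted p = 0.0557). Under arrhythmic feeding it read 14.7, 16.8 and 12.7 at ZT2 and 9.999, 10.8 and 7.28 at ZT14. These did not overlap either, and the range over the day was 0.28 (edgeR adjusted p = 0.874). In the incompletely adapted mice the libraries held 12.8, 14.9 and 17.4 CPM at ZT6 and 7.31, 9.51 and 7.40 at ZT14, and the range was 0.66 (edgeR adjusted p = 0.586).

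Nars, the asparaginyl enzyme, read 181, 112 and 100.2 CPM at ZT2 under night-restricted feeding and 62.4, 76.1 and 73.4 at ZT10. At ZT22 it read 200.5, 76.2 and 100.1. The ZT2 libraries all lay above the ZT10 libraries, while at ZT22 replicate 1 was the highest and replicate 2 lay beside the ZT10 libraries. The range was 1.07 ± 0.26 with a peak at ZT23.6 (edgeR adjusted p = 0.00447), but 0.39 without the 6 night-restricted libraries numbered 1 (edgeR adjusted p = 0.445). The call was also lost without the 5 libraries of extreme GC slope, and it was kept with the GC covariate. Farsa (chr8:84856989-84869257, plus strand, GRCm38) read 349, 147 and 124 CPM at ZT22, highest in replicate 1, and 90.5, 141 and 100.5 at ZT10, which overlapped. Its range of 0.84 ± 0.29 did not pass (edgeR adjusted p = 0.0700), nor did that of Farsb (0.83 ± 0.28, edgeR adjusted p = 0.0536). Farsb read 143, 85.5 and 80.7 CPM at ZT2 and 52.5, 83.3 and 64.2 at ZT10 under night-restricted feeding, which overlapped. Under arrhythmic feeding it read 71.97, 86.1 and 70.8 at ZT2 and 52.8, 63.1 and 45.6 at ZT22, which were apart.

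Qars, the glutaminyl enzyme of the multi-synthetase complex (chr9:108507706-108515941, plus strand, GRCm38), was the only member called in 2 paradigms and was chosen for this account after its values were seen. Under night-restricted feeding its libraries held 37.3, 29.2 and 30.2 CPM at ZT10 and 19.6, 19.7 and 19.6 at ZT18. Under ad libitum feeding they held 28.2, 30.6 and 26.0 at ZT10 and 18.3, 18.7 and 19.7 at ZT18. The ZT10 and ZT18 libraries were apart in both. The ranges were 0.54 ± 0.14 with a peak at ZT8.7 (edgeR adjusted p = 0.00809) and 0.55 ± 0.14 with a peak at ZT9.0 (edgeR adjusted p = 0.0164). The level of Qars barely followed the GC slope (Pearson r = -0.01 over 72 libraries). Its night-restricted call was lost without the low-count filter and on the night-restricted libraries alone. The ad libitum call was lost without the filter and with time as a factor. Under arrhythmic feeding Qars read 29.6, 27.7 and 26.2 CPM at ZT2 and 17.8, 20.5 and 22.6 at ZT18, with a fitted peak at ZT8.1 and a range of 0.37 (edgeR adjusted p = 0.313). The incompletely adapted mice gave 24.3, 27.9 and 28.9 at ZT6 and 23.3, 18.7 and 20.5 at ZT18, a peak at ZT5.8 and a range of 0.28 (edgeR adjusted p = 0.551).

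Sars (seryl) and Mars (methionyl), 2 further night-restricted calls, had ranges of 1.09 ± 0.30 with a peak at ZT2.2 (edgeR adjusted p = 0.0160) and 0.55 ± 0.18 with a peak at ZT3.9 (edgeR adjusted p = 0.0470). The call for Sars was lost without night-restricted replicate 1 at ZT2 (edgeR adjusted p = 0.0598), and that for Mars was lost when any 1 of 56 of the 72 libraries was left out. Both calls were lost with the GC covariate and without the 6 night-restricted libraries numbered 1. Without the 5 libraries of extreme GC slope the call for Sars was lost and that for Mars was kept. Iars, the isoleucyl enzyme, read 9.65, 9.63 and 13.3 CPM at ZT2 and 12.8, 18.2 and 20.9 at ZT14 under night-restricted feeding, which overlapped, and its range was 0.73 ± 0.25 with a peak at ZT17.4 (edgeR adjusted p = 0.0510). Aars, the alanyl enzyme, was among the flattest of the named cytosolic genes, with 27.3, 37.1 and 40.2 CPM at ZT6 and 37.0, 44.5 and 49.9 at ZT22, which overlapped, and a range of 0.28 ± 0.15 (edgeR adjusted p = 0.267). Under arrhythmic feeding it read 51.8, 51.8 and 50.1 CPM at ZT2 and 38.6, 36.7 and 40.5 at ZT18, apart, with a range of 0.29 (edgeR adjusted p = 0.542). Kars, the lysyl enzyme, had the largest p of the cytosolic members under night-restricted feeding, with 11.9, 21.7 and 33.1 CPM as the lowest, median and highest of its 18 libraries and a range of 0.13 ± 0.22 (edgeR adjusted p = 0.872). It read 17.4, 26.5 and 32.3 at ZT6, 17.96, 20.5 and 27.7 at ZT10 and 11.9, 25.7 and 28.7 at ZT22, with the times overlapping, and replicate 1 was the lowest of its triplet at all 6 times. Wars ran from 5.64 to 10.3 CPM there (range 0.28, edgeR adjusted p = 0.509), with 8.52, 9.50 and 9.43 at ZT2 and 8.40, 5.64 and 8.76 at ZT6, which overlapped.

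The 8 genes of the multi-synthetase complex were set beside the other 12 cytosolic genes. Of the complex genes 3 of 8 had a fitted night-restricted peak between ZT20 and ZT6, against 12 of 12 of the others, and 45.0% of all genes tested did. Of the complex genes 2 were called rhythmic (Mars and Qars, median range 0.54) and of the others 4 (Cars, Nars, Sars and Tars, median range 0.71). Under ad libitum feeding 2 of the 8 and 12 of the 12 peaked in that window (40.0% of all genes), under arrhythmic feeding 4 of 8 and 4 of 12 (47.4%), and in the incompletely adapted mice 3 of 8 and 10 of 12 (44.4%). The night-restricted counts were 2 of 8 and 7 of 12 with the GC covariate, 3 of 8 and 10 of 12 without the 5 extreme libraries, and 2 of 8 and 11 of 12 without the 6 night-restricted libraries numbered 1. With the GC covariate the ad libitum counts were 4 of 8 and 10 of 12. The 2 groups also differed in how their levels followed the GC slope. Pearson r ran from -0.89 (Iars) to -0.01 (Qars) in the complex genes and from -0.76 (Tars) to 0.88 (Farsb) in the others. Whether the slope bears on the peak counts was not tested. Peak positions of genes that were not called are uncertain, and the difference between the 2 groups was not tested.

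**Figure D2:**
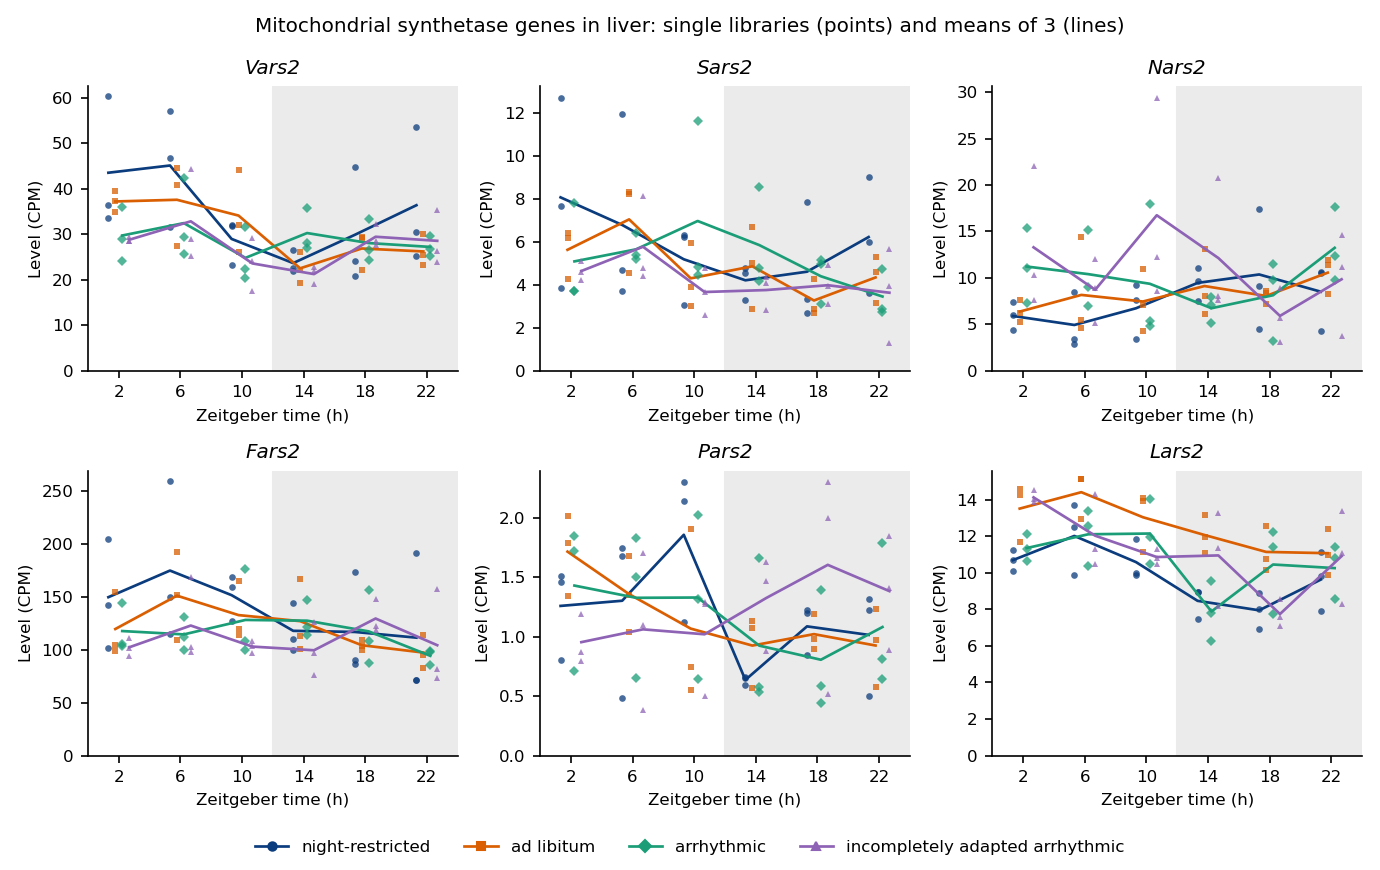
CPM of 6 mitochondrial members (Vars2, Sars2, Nars2, Fars2, Pars2, Lars2) over zeitgeber time in the 4 paradigms, drawn as for the cytosolic genes. Vars2 is highest at ZT2 and ZT6 under night-restricted feeding, Lars2 at ZT6 under night-restricted and ad libitum feeding, and Pars2 lies between 0.388 and 2.30 CPM throughout.

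Among the mitochondrial genes Vars2, the valyl enzyme (chr17:35655634-35667592, minus strand, GRCm38), read 57.1, 31.6 and 46.7 CPM at ZT6 and 22.5, 26.6 and 21.9 at ZT14 under night-restricted feeding, with no overlap. The range was 1.04 ± 0.27 with a peak at ZT2.3 (edgeR adjusted p = 0.00756), and 0.85 without the 6 night-restricted libraries numbered 1 (edgeR adjusted p = 0.0478). The call was lost without night-restricted replicate 1 at ZT2 alone (edgeR adjusted p = 0.0610). Under ad libitum feeding the 3 libraries held 44.6, 40.8 and 27.4 CPM at ZT6 and 22.2, 26.2 and 19.3 at ZT14, which were also apart, and the range of 0.76 did not pass (edgeR adjusted p = 0.142). Under arrhythmic feeding Vars2 held 25.6, 29.4 and 42.4 at ZT6 and 28.1, 35.7 and 27.0 at ZT14, which overlapped, with a range of 0.17 ± 0.27 (edgeR adjusted p = 0.932).

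Sars2 (seryl) read 12.7, 7.68 and 3.87 CPM at ZT2 and 4.56, 4.78 and 3.31 at ZT14 under night-restricted feeding, overlapping, with a range of 1.05 ± 0.39 (edgeR adjusted p = 0.0863). Nars2 (asparaginyl) read 2.94, 8.46 and 3.41 CPM at ZT6 and 4.54, 17.4 and 9.15 at ZT18, overlapping, with a range of 1.02 ± 0.40 and a peak at ZT17.6 (edgeR adjusted p = 0.105). Its highest library of all held 29.3 CPM, at ZT10 in the incompletely adapted mice, and is the library of extreme GC slope there. Fars2 read 259.8, 115 and 149.6 CPM at ZT6 and 191, 71.1 and 71.9 at ZT22 under night-restricted feeding. Replicate 1 was the highest at both times, the triplets overlapped, and the range was 0.66 ± 0.30 (edgeR adjusted p = 0.177). With the GC covariate it passed (range 0.65, peak ZT10.2, edgeR adjusted p = 6.56e-05). Pars2 read 2.30, 2.15 and 1.13 CPM at ZT10 and 0.651, 0.598 and 0.663 at ZT14, and its range of 0.80 ± 0.45 did not pass (edgeR adjusted p = 0.317).

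Lars2, the leucyl enzyme (chr9:123366927-123462666, plus strand, GRCm38), and Cars2, the cysteinyl one, were chosen for their close replicates after their values were seen. Lars2 held 9.86, 13.7 and 12.5 CPM at ZT6 and 8.91, 6.92 and 8.03 at ZT18 under night-restricted feeding, apart, with a range of 0.62 ± 0.16 and a peak at ZT4.6 (edgeR adjusted p = 0.00724). Cars2 held 17.5, 16.6 and 18.2 at ZT2 and 6.76, 9.42 and 10.8 at ZT14, also apart, with a range of 1.10 ± 0.25 and a peak at ZT1.3 (edgeR adjusted p = 0.00254). Both calls held when any single library was left out. Without the 6 night-restricted libraries numbered 1 the call for Lars2 held (0.68, edgeR adjusted p = 0.0284) and that for Cars2 was lost (0.84, edgeR adjusted p = 0.0994).

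Of the other night-restricted calls, Hars2 (histidyl) had a range of 0.59 ± 0.13 and a peak at ZT1.6 (edgeR adjusted p = 0.00220). Ears2 (glutamyl, 0.54 ± 0.15, edgeR adjusted p = 0.0136) peaked at ZT19.6 and Mars2 (methionyl, 1.03 ± 0.31, edgeR adjusted p = 0.0276) at ZT16.8. Mars2 was a low gene, at 1.29, 1.22 and 1.01 CPM at ZT2 and 3.17, 3.74 and 2.49 at ZT14, and its call was lost without any 1 of 3 libraries. The calls for Hars2, Ears2 and Mars2 were lost without the 6 night-restricted libraries numbered 1. Ears2 and Mars2 also lost theirs without the 5 libraries of extreme GC slope, while that for Hars2 held. With the GC covariate these calls were kept. Wars2, called under ad libitum feeding with a range of 1.10 ± 0.31 (edgeR adjusted p = 0.0481), ranged from 0.971 to 3.10 CPM there. That call was lost with the GC covariate (range 0.94, edgeR adjusted p = 0.0789), with DESeq2 size factors, without the low-count filter, with time as a factor and on the ad libitum libraries alone, and the count of ad libitum calls fell to 1 when any 1 of 48 libraries was left out.

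The cytosolic and mitochondrial enzymes of 16 amino acids gave 17 pairs, since Farsa and Farsb share Fars2. Under night-restricted feeding both genes were called rhythmic in 2 pairs, 1 gene in 7 and neither in 8. Cars and Cars2 peaked 0.56 h apart. Mars and Mars2 peaked 11.1 h apart, at ZT3.9 and ZT16.8. Vars and Vars2 peaked 0.11 h apart and Sars and Sars2 0.23 h apart, with 1 called gene in each pair, whereas Nars and Nars2 lay 6.0 h apart.

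**Figure D3:**
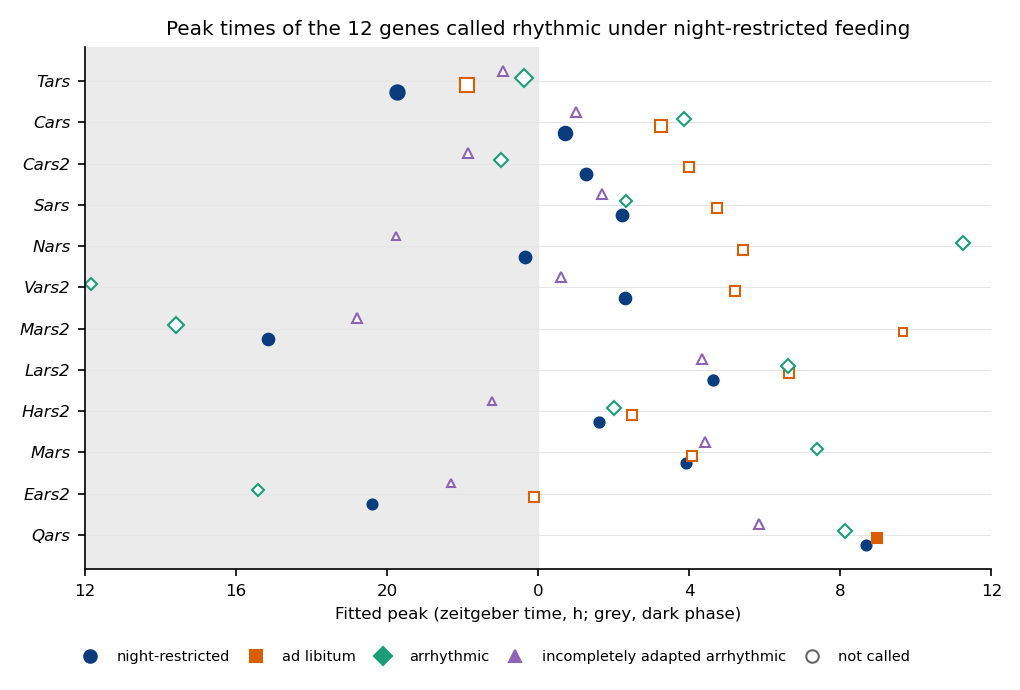
Fitted peak time (ZT, h) in each paradigm for the 12 members called rhythmic under night-restricted feeding; filled markers are called rhythmic in that paradigm and marker size grows with the log2 range. The night-restricted markers lie between ZT16.8 and ZT8.7 across lights on, and in the 2 arrhythmic paradigms no marker is filled.

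The question of the paradigms is whether the course of these genes differed with the feeding pattern. Between arrhythmic and night-restricted feeding the rhythm difference passed for 1 of 36 members, Nars, beside 3.89% of all genes tested. The Nars range was 0.39 ± 0.26 under arrhythmic against 1.07 ± 0.26 under night-restricted feeding, a difference of -0.68 ± 0.37. The test of range and peak time together gave an edgeR adjusted p of 0.0337. Under arrhythmic feeding Nars read 80.0, 109.8 and 86.3 CPM at ZT14 and 71.3, 67.3 and 86.5 at ZT18, close together, and the fitted peak was at ZT11.2. The call was lost when any 1 of 10 libraries was left out, with the highest edgeR adjusted p, 0.101, without night-restricted replicate 1 at ZT2. Those libraries were replicates 1 at ZT2 and ZT22, 2 at ZT10 and ZT14 and 3 at ZT22 of the arrhythmic group, and 1 at ZT2, ZT10 and ZT22, 2 at ZT14 and 3 at ZT10 of the night-restricted group. With the GC covariate the range difference was -0.38 (edgeR adjusted p of the same joint test = 0.0610), beside 3.15% of all genes called. It was 0.0078 without the 5 libraries of extreme GC slope (edgeR adjusted p = 0.259, beside 2.28%) and -0.01 without the 6 night-restricted libraries numbered 1 (edgeR adjusted p = 0.314, beside 1.47%). Leaving out arrhythmic replicate 2 at ZT2 or night-restricted replicate 1 at ZT18 gave 2 called members.

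The test takes range and peak time together, so a small p can come from either. Farsa peaked at ZT23.4 under night-restricted and ZT13.7 under arrhythmic feeding, with ranges of 0.84 and 0.54, a difference of -0.30 (edgeR adjusted p = 0.0983). Farsb peaked at ZT0.91 and ZT11.0, with ranges of 0.83 and 0.44, a difference of -0.38 (edgeR adjusted p = 0.0990). Aars peaked at ZT22.0 and ZT7.5 with ranges of 0.28 and 0.29 (edgeR adjusted p = 0.173). Cars, by contrast, peaked at ZT0.72 and ZT3.9 and its range difference was -1.34 ± 0.46 (edgeR adjusted p = 0.107), and Iars had -0.46 (edgeR adjusted p = 0.187). Among the mitochondrial genes Sars2 peaked at ZT2.5 and ZT10.4 with ranges of 1.05 and 1.002, a difference of -0.05 (edgeR adjusted p = 0.0929). Vars2 had -0.87 ± 0.38 (edgeR adjusted p = 0.0947) and Nars2 -0.44 (edgeR adjusted p = 0.207). None of these passed. Without the 5 extreme libraries the range differences of Farsa, Farsb and Sars2 turned to 0.29, 0.13 and 0.45. At an unadjusted edgeR p under 0.05 there were 8 members of 36, beside 3294 of all 12712 genes tested. Of the 36 members 30 had a smaller fitted range under arrhythmic than night-restricted feeding, as had 72.5% of all genes tested. The 30 included 16 of the 16 mitochondrial genes and 14 of the 20 cytosolic ones. The cytosolic exceptions were Lars, Dars, Eprs, Gars, Kars and Aars. The median difference in range was -0.20 for the members and -0.25 for all genes. The count of smaller ranges was 27 of 36 with the GC covariate, 23 without the 5 extreme libraries and 25 without the 6 night-restricted libraries numbered 1. For the mitochondrial genes it was 13 of 16 in each of these settings. For the cytosolic genes it was 14, 10 and 12 of 20 in that order, with median range differences of -0.16, -0.0018 and -0.064. The shares of all genes in these settings are not given here.

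**Figure D4:**
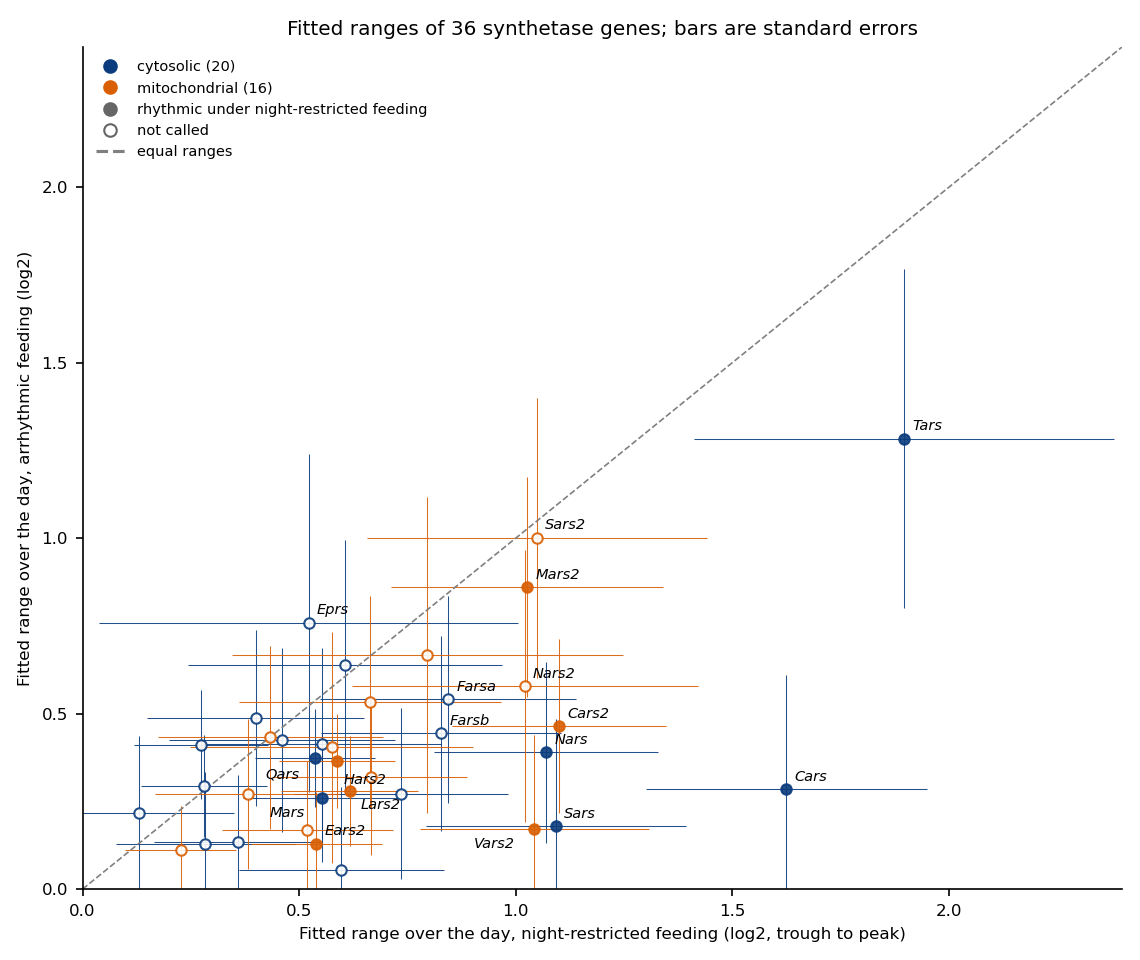
Fitted log2 range under night-restricted (x axis) against arrhythmic feeding (y axis) for the 36 members, with SE bars; blue is cytosolic, orange mitochondrial, filled markers passed in the night-restricted group, and the dashed line marks equal ranges. Most markers (30) lie below the line, with Cars far below it and Tars at the far right with 1.90 and 1.28.

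No member had a rhythm difference between arrhythmic and ad libitum feeding, beside 0.0236% of all genes. None had one between night-restricted and ad libitum feeding (beside 0%) or between the 2 arrhythmic paradigms (beside 0%). At an unadjusted edgeR p under 0.05 these comparisons held 1, 3 and 0 members in that order. Of all 12712 genes tested, 1150, 1109 and 310 reached that level. Between the incompletely adapted and the night-restricted group the count passing was 0 as well, beside 0.614% of all genes. There 5 members had an unadjusted edgeR p under 0.05, beside 1855 of the 12712 genes. DESeq2 gave 0 in each of these 4 comparisons. The 2 comparisons with night-restricted feeding share its libraries. In the incompletely adapted group the Nars range was 0.19 with a peak at ZT20.2.

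Mean levels over the day differed in few members. Under arrhythmic feeding Farsa was lower than under night-restricted feeding, the only member of 36 to pass, beside 6.92% of all genes (5.16% lower). Its lowest, median and highest libraries were 91.5, 119 and 195 CPM under arrhythmic and 90.5, 143 and 349 under night-restricted feeding, so the groups overlapped, and the mean difference was -0.47 ± 0.15 (log2, SE, edgeR adjusted p = 0.0405). It was -0.19 with the GC covariate (edgeR adjusted p = 0.191, beside 6.25% of all genes called), -0.07 without the 5 extreme libraries (edgeR adjusted p = 0.866, beside 0.729%) and -0.06 without the 6 night-restricted libraries numbered 1 (edgeR adjusted p = 0.868, beside 1.4%). With the covariate another member, Hars (histidyl), was higher under arrhythmic feeding (0.29, edgeR adjusted p = 0.0433). The call for Farsa was lost when any 1 of 19 libraries was left out. In the arrhythmic group these were replicate 1 at ZT2, ZT6, ZT10, ZT14 and ZT22, replicate 2 at ZT6, ZT18 and ZT22, and replicate 3 at ZT10, ZT14, ZT18 and ZT22. In the night-restricted group they were replicate 1 at ZT2, ZT6, ZT14, ZT18 and ZT22 and replicate 2 at ZT10 and ZT14. A count of 2 members was reached without any 1 of 7 libraries: ad libitum replicate 2 at ZT10, arrhythmic replicates 2 at ZT14 and 1 at ZT18, and night-restricted replicates 3 at ZT2, 2 at ZT6 and 2 or 3 at ZT22. Lars2 was lower under night-restricted than ad libitum feeding, the only one of 36, beside 1.62% of all genes (0.897% lower). Its libraries held 6.92, 9.88 and 13.7 CPM as lowest, median and highest under night-restricted and 9.87, 12.5 and 15.1 under ad libitum feeding, a difference of -0.30 ± 0.08 (edgeR adjusted p = 0.0290). With ad libitum replicate 2 at ZT10 left out 2 members passed, and without the 6 night-restricted libraries numbered 1 there were 0.

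Arrhythmic against ad libitum feeding gave 0 calls, beside 2.1% of all genes, and 0 by DESeq2. It gave 1 call without arrhythmic replicate 1 at ZT18. At an unadjusted edgeR p under 0.05 it held 2 members, beside 1782 of all 12712 genes tested. The 2 arrhythmic groups gave 0 calls, beside 0% of all genes, and 0 by DESeq2. At an unadjusted edgeR p under 0.05 they held 1 member, beside 639 of the 12712 genes. The incompletely adapted against the night-restricted group gave 7 of 36 calls, beside 18% of all genes tested. Lower were Farsa (-0.53), Vars2 (-0.42), Farsb (-0.43), Nars (-0.39), Sars2 (-0.55) and Fars2 (-0.41), beside 11.2% of all genes, with edgeR adjusted p from 0.0111 for Farsa to 0.0472 for Fars2. Higher was Tars, by 0.80 ± 0.24 (edgeR adjusted p = 0.0182), beside 6.85%. Tars libraries held 76.1, 235 and 638 CPM as lowest, median and highest in the incompletely adapted group and 28.1, 133 and 416 in the night-restricted group. The count was 0 with the GC covariate (beside 4.42% of all genes), 0 without the 5 libraries of extreme GC slope (beside 1.11%) and 0 without the 6 night-restricted libraries numbered 1 (beside 2%). It fell to 2 without any 1 of the night-restricted replicates 1 at ZT2, ZT6, ZT18 or ZT22. It was 3 without incompletely adapted replicate 1 at ZT10 or 2 at ZT22, 4 without its replicate 2 at ZT2, 2 at ZT14 or 1 at ZT22, and 13 without its replicate 3 at ZT6.

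Summed over the 20 cytosolic genes, mean levels were highest at ZT22 in 3 paradigms and at ZT2 in the incompletely adapted mice. They were lowest at ZT10 under night-restricted and ad libitum feeding, at ZT14 under arrhythmic feeding and at ZT18 in the incompletely adapted mice. Under night-restricted feeding the sum was 1076 ± 88 CPM at ZT2, 794 ± 78 at ZT10 and 1120 ± 98 at ZT22 (SD, n = 3). Under arrhythmic feeding it was 1110 ± 68 at ZT2, 903 ± 9 at ZT14 and 1168 ± 11 at ZT22, and the ZT14 and ZT22 libraries did not overlap. The sum was weighted by Tars, which made up 2.22% to 46.4% of it, with a median of 19.98% over the 72 libraries. Without Tars the mean sum was highest at ZT22 in none of the paradigms: it was highest at ZT2 under night-restricted feeding (888 ± 102, beside 873 ± 168 at ZT22 and 710 ± 61 at ZT10), and at ZT6 in the other 3, with 899 ± 45 in the freely fed mice, 846 ± 132 in the arrhythmic and 838 ± 15 in the incompletely adapted group. Under arrhythmic feeding it was then 755 ± 60 at ZT14 and 733 ± 54 at ZT22, which differed by less than the SD. The mitochondrial sum was highest at ZT6 in all 4 paradigms, with 361 ± 86 CPM under night-restricted and 302 ± 15 under arrhythmic feeding, 346 ± 44 in the ad libitum and 305 ± 43 in the incompletely adapted group. The arrhythmic ZT2 value, 301 ± 20, differed from that at ZT6 by less than the SD. Under night-restricted feeding the sum was lowest at ZT14 (271 ± 16), and there the ZT6 and ZT14 libraries did not overlap. This sum was weighted by Fars2, which made up 27.2% to 57.1% of it (median 39.4%) and was not called rhythmic. Without Fars2 the mean was highest at ZT2 under night-restricted feeding (190 ± 17, beside 186 ± 11 at ZT6) and in the incompletely adapted group (188 ± 20, beside 182 ± 8 at ZT6), and at ZT6 under ad libitum (195 ± 12) and arrhythmic feeding (188 ± 3).

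How far these values followed the libraries' GC slope differed between members. Pearson r over the 72 libraries, which share depth and slope and are not independent measures of a gene, ran from -0.89 for Iars to 0.88 for Farsb. It was beyond 0.6 in size for 17 of 36 members (47.2%), 10 positive and 7 negative, against 39.3% of all genes tested. Fars2 (0.84), Vars2 (0.80), Cars (0.65) and Nars (0.63) had positive values and Tars (-0.76) a negative one, while Qars (-0.01) and Lars2 (-0.13) lay near 0. The mean slope was 0.0618 ± 0.165 in the night-restricted libraries, 0.0033 ± 0.104 in the ad libitum, -0.0106 ± 0.106 in the arrhythmic and -0.0545 ± 0.151 in the incompletely adapted ones (SD of single libraries, n = 18). The night-restricted and incompletely adapted means lay furthest apart. That pair gave the 7 mean level calls that became 0 with the GC covariate. Differences in slope between the paradigms were not tested. Without the 5 extreme libraries the night-restricted mean was -0.0146 ± 0.0807 (n = 14) and the incompletely adapted one -0.0404 ± 0.143 (n = 17). With the slope as a covariate 13 members were called rhythmic in the night-restricted group (beside 33.4% of all genes), of which 10 were shared with the 12. Without the 5 extreme libraries 10 were called (beside 23.2%), 8 of them shared. Without the 6 night-restricted libraries numbered 1 there were 5, Cars, Lars2, Qars, Tars and Vars2, beside 17.5% of all genes. These 5 were called in all 3 settings. In other settings they were not all kept. With time as a factor Cars and Qars were called among them, and on the night-restricted libraries alone Lars2 and Tars, while Vars2 was called in neither.

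**Figure D5:**
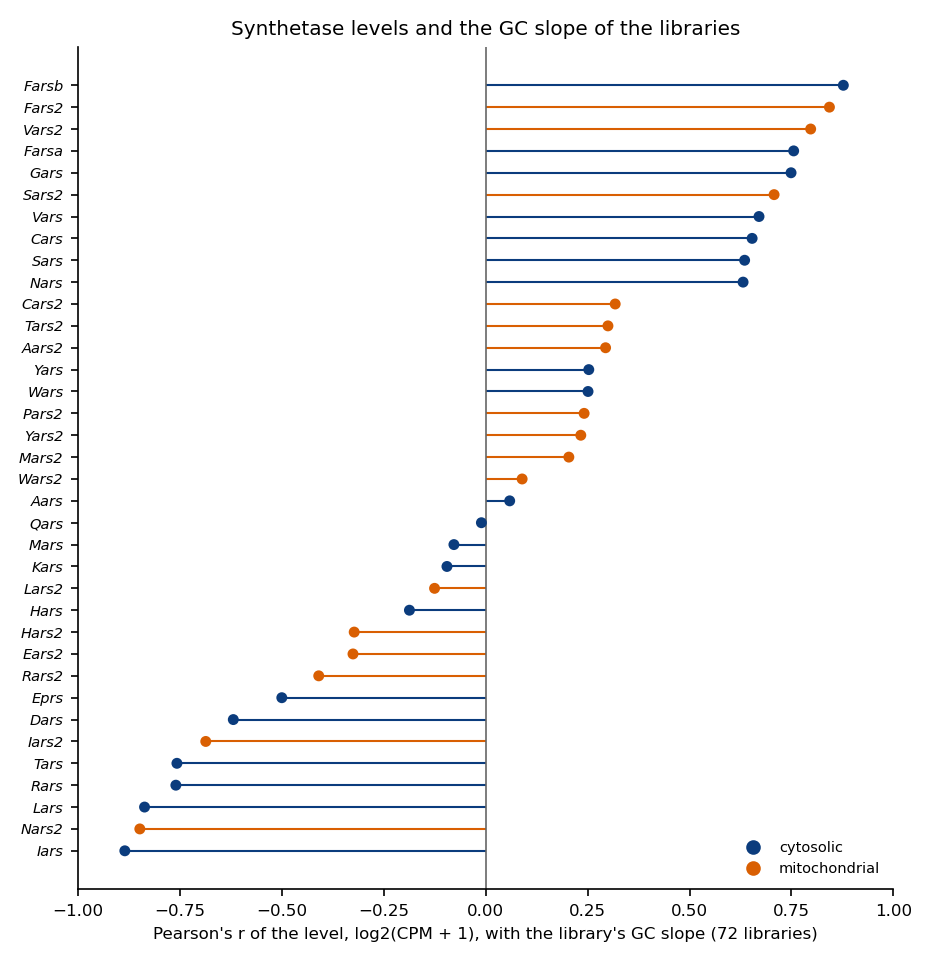
Pearson r between log2(CPM + 1) and the GC slope of the 72 libraries for each of the 36 members. Bars run from -0.89 for Iars to 0.88 for Farsb, and Qars lies at -0.01.

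Genes around the synthetases were described from lists, and their counts are to be read beside the shares of all genes tested: 29.9% rhythmic in the night-restricted group, 7.48% in the freely fed mice, 3.37% in the arrhythmic group and 3.63% in the incompletely adapted mice, with 3.89% showing a rhythm difference between arrhythmic and night-restricted feeding. Their values are from the main fit only, and the alternatives with the GC covariate or with libraries left out were not read for them. Of the 3 scaffolds of the multi-synthetase complex, 1 was called rhythmic under night-restricted feeding (Aimp1, range 0.68 ± 0.17, peak ZT8.2, edgeR adjusted p = 0.00656). Of 6 cytosolic elongation factors 2 were called, Eef2 with a range of 0.75 and Eef2k, its kinase, with 0.95. Of 12 mitochondrial charging and translation factors 3 were called, Qrsl1, Gatc and Mtrf1l. The shares of these 3 lists lie near that of all genes. Qrsl1, which encodes a subunit of the mitochondrial amidotransferase that makes glutaminyl-tRNA, had a range of 0.91 ± 0.19 with a peak at ZT14.1 in the night-restricted group. In the arrhythmic group the range was 0.34 with a peak at ZT5.4, and the difference in range and peak time together passed (edgeR adjusted p = 0.0145).

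Of the 20 genes of amino acid sensing and the ATF4 pathway 17 were tested, with Psat1, Phgdh and Slc7a11 below the low-count filter. The night-restricted group gave 10 rhythmic genes of the 17, the ad libitum group 5, the arrhythmic group 2 and the incompletely adapted group 1. Atf4 had a range of 1.04 ± 0.19 with a peak at ZT23.3 under night-restricted feeding (edgeR adjusted p = 0.000194), 0.79 in the ad libitum group and 0.40 in the arrhythmic group. Trib3, a target of ATF4, had 3.62 ± 0.36 with a peak at ZT5.7 under night-restricted and 1.42 under arrhythmic feeding, a difference that passed (edgeR adjusted p = 0.0162). Atf5 had 2.72 ± 0.30 with a peak at ZT0.95 and 0.73 in the same 2 paradigms (edgeR adjusted p of the difference = 0.00935). The peaks of Atf4 and Nars lay close, at ZT23.3 and ZT23.6, and those of Cars and Tars at ZT0.72 and ZT20.3. These are positions side by side, and a link between them was not tested. Of the 7 editing and tRNA maintenance genes 6 were tested and 2 passed in the night-restricted group, Prorsd1 and Xpot, a share near that of all genes, and 0 in the other paradigms.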

How the data were processed

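The authors deposited raw read counts for 51912 genes in 72 libraries, and a second table, named TPM, whose values equalled CPM from those counts to within 5.09e-11 and whose 11508 genes exceeded 1 CPM in at least 36 libraries. The submitters' processing notes name the builds GRCm38.p5 and mm10, and STAR 2.4.2a. How reads were counted, and on which strand, is not given in the sources used here. Counting has no length term. The counts went into edgeR 4.0.16 under R 4.3.3 (quasi-likelihood, robust, TMM, filterByExpr over the 24 groups, 12712 genes), with a mean, cosine and sine term per paradigm and Benjamini-Hochberg adjustment over all genes. The GC slope of a library is the regression of its log2(CPM + 1) deviations on the GC content of the last 500 transcript bases over 6463 genes of at least 10 CPM. CPM printed here are scaled to all counts of a library. DESeq2 1.42.0, no low-count filter, a time factor, a GC slope covariate, left-out libraries and a replicate block were alternatives. The code was tested on simulated data.

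The members and lists were chosen with earlier results of these data known. Values per library were given for the 6 cytosolic and 3 mitochondrial members of smallest p for the rhythm difference between arrhythmic and night-restricted feeding, the highest and lowest member of each group, and the cytosolic member of largest night-restricted p. Companion genes were named by that difference test. Members or companions named beyond that rule were chosen after their values were seen. Replicates had 4342026 to 12286021 counts per library.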

Additional observations from a re-analysis of the deposited data

Results flagged for a closer look

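Among the members and the companion lists 4 genes differed in rhythm between arrhythmic and night-restricted feeding by the test of the difference itself, 4 of 80 tested beside 3.89% of all genes, and of these only Nars is a synthetase. That test takes range and peak time together, and Nars had an edgeR adjusted p of 0.0337. Its log2 range was 0.39 under arrhythmic and 1.07 under night-restricted feeding, a difference of -0.68, and its fitted peaks were at ZT11.2 and ZT23.6. The range difference was -0.38 with the GC covariate (edgeR adjusted p of the same joint test = 0.0610). Without the 5 libraries of extreme GC slope it was 0.0078 (edgeR adjusted p = 0.259), so the call was lost in both. The mitochondrial charging gene Qrsl1 had an edgeR adjusted p of 0.0145. The ATF4 pathway genes Trib3 and Atf5 had edgeR adjusted p of 0.0162 and 0.00935, with wider ranges under night-restricted feeding in both. Values of Qrsl1, Trib3 and Atf5 are from the main fit only. Whether their calls hold with the GC covariate or without the 5 libraries of extreme GC slope was not tested.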

How the results depend on the processing

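Of the 36 members, the 12 called rhythmic under night-restricted feeding became 4 with time as a factor, 3 with each paradigm fitted on its own libraries, 5 without the 6 night-restricted libraries numbered 1 (a setting chosen after seeing the data), and 6 to 16 with libraries left out. That phrase covers both the 72 fits without 1 library (here 9 to 16) and the 3 without all libraries of 1 replicate number (here 8, 6 and 9 for numbers 1 to 3). The 2 under ad libitum feeding became 1 with DESeq2 size factors, 0 without a low-count filter or with time as a factor, 4 with the GC covariate, with the replicate block and GC covariate or without the 6 night-restricted libraries numbered 1, 5 without the 5 extreme libraries, and 0 to 4 with libraries left out (1 to 4 for single ones). The count was 1 without any of 48 libraries, and 4 without ad libitum replicate 3 at ZT6. The 0 under arrhythmic feeding became 4 with the replicate block and GC covariate, and the 0 in the incompletely adapted mice became 2 with the GC covariate, with or without the block, and up to 1 with libraries left out (without its replicate 3 at ZT14).

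The rhythm difference of 1 member between arrhythmic and night-restricted feeding became 0 with time as a factor, the GC covariate, own libraries only, and without the 5 or the 6 libraries, and 0 to 2 with libraries left out. The mean difference of 1 for that pair became 0 without the filter, with time as a factor, own libraries only, and without the 5 or the 6 libraries, 2 with DESeq2 and 0 to 8 with libraries left out (0 to 2 for single ones and 0, 5 and 8 for numbers 1 to 3). Arrhythmic against ad libitum means went from 0 to 2 with the GC covariate, with or without the block, and up to 1 with a library left out. Night-restricted against ad libitum means went from 1 to 0 without the filter or without the 6 libraries, and 0 to 4 with libraries left out (1 to 2 for single ones and 0, 4 and 2 for the numbers). The 7 in the incompletely adapted against night-restricted means became 4 without the filter, 0 with the GC covariate or without the 5 or the 6 libraries, 1 with the block and GC covariate, 2 with own libraries, and 0 to 19 with libraries left out (2 to 13 for single ones and 0, 6 and 19 for the numbers). The causes were not tested.

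The log2 range difference, arrhythmic minus night-restricted, changed sign as follows. Without the 5 libraries it was 0.0078 for Nars, 0.29 for Farsa, 0.13 for Farsb, 0.45 for Sars2, 0.061 for Wars and -0.017 for Kars. Without the 6 libraries it was 0.43 for Farsa, 0.027 for Farsb and 0.37 for Sars2. With the GC covariate it was 0.16 for Farsb, 0.65 for Sars2 and 0.11 for Pars2, and with the block as well 0.17, 0.66 and 0.11. With time as a factor it was -0.031 for Aars, 0.092 for Sars2 and 0.034 for Wars, and without the filter -0.0090 for Aars. With libraries left out it ran from -1.35 to 0.11 for Nars, -0.88 to 0.43 for Farsa, -0.85 to 0.22 for Farsb, -0.45 to 0.53 for Sars2, -0.43 to 0.15 for Fars2, -0.26 to 0.014 for Wars, -0.39 to 0.19 for Pars2 and -0.10 to 0.31 for Kars, with a lowest value of -0.094 for Aars. Of 528 values of single members under alternatives, 437 kept direction and side of the threshold, 14 gained it, 49 lost it and 28 changed sign.

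The replicate numbers were not shown to pair the samples: the deviations of same-numbered libraries correlated above 0.1 in 6 of 18 cases between arrhythmic and night-restricted feeding, in 9 of 18 in each of the 2 comparisons with ad libitum feeding and in 4 of 18 in each of the 2 with the incompletely adapted group. The fit with the replicate block gave 12 members rhythmic under night-restricted feeding and 1 rhythm difference between arrhythmic and night-restricted feeding. It gave 6 mean differences for the incompletely adapted against the night-restricted group, 5 of them among the 7 (without Fars2 and Sars2), and the block alone changed no other count. A level rule of 2 CPM keeps 34 members and one of 0.5 CPM keeps 36.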
